A study of Arabidopsis thaliana with 6 samples.

Results

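The proteins that carry out the light reactions of photosynthesis are encoded partly in the chloroplast and partly in the nucleus, and 30 nuclear genes for them were examined here. They were chosen by locus from known function, with earlier results of these data known. The 30 are 12 genes of photosystem I (PSA genes), 9 of photosystem II (PSB genes), 7 of electron carriers and 2 of the chloroplast ATP synthase. The carriers are the Rieske protein of the cytochrome b6f complex, plastocyanin, ferredoxin and ferredoxin-NADP reductase (FNR). All 30 were among the 33602 genes of the count table, and all 30 were among the 18504 genes that passed the filter on low counts. Every sample was leaf of the *Arabidopsis thaliana* mutant *cat2-2* in the Columbia-0 ecotype. The mutation is in CAT2, the main leaf catalase, which removes hydrogen peroxide made by photorespiration. Plants were 3 weeks old and had been kept at 3000 ppm CO2, a level that limits photorespiration, at 75% relative humidity and 21 °C, with days of 16 h at 120 µmol m-2 s-1. The 3 libraries of the high CO2 group were sampled there at 0 h. The 3 libraries of the high light group were sampled after 3 h in another chamber at 400 ppm CO2, 1200 µmol m-2 s-1, 55% relative humidity and 21 °C. A library pooled leaves of 15 plants, and the whole set-up was run for each of the 3 biological repeats. No wild type is among the samples, and light, CO2, humidity, chamber and time differ at once between the groups, so their effects cannot be told apart.

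Photosystem II takes electrons from water in the light, the cytochrome b6f complex and the copper protein plastocyanin pass them on, and photosystem I lifts them to ferredoxin, from which FNR makes NADPH. Protons moved on the way drive the ATP synthase. The chloroplast encodes most reaction centre proteins, while the nucleus encodes many peripheral, stabilising and docking subunits, often as pairs of similar genes, whose transcription is known to respond to light and to signals from the chloroplast. The 133 chloroplast genes had 0 counts in all libraries, so the chloroplast-encoded partners were not analysed here.

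Library totals ranged from 18047295 to 24149149 counts. A member had 1484 to 209767 counts in a library, so that counting error was at most 2.60% of a value and the spread between libraries set the precision. CAT2 was still counted in the mutant, at 83.2 to 108 CPM (counts per 1e6 counts, scaled between libraries) in high CO2 and 33.5 to 43.8 CPM in high light, and without a wild type this level does not check the genotype. Markers of leaf mesophyll (RBCS1A, CA1 and RCA) were abundant everywhere. Of 4 root markers, PYK10, RHD6 and COBL9 had 0 counts and WOX5 had 46 counts over all 6 libraries.

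The 4 sequences that follow belong to FNR (LFNR1 and LFNR2) and to photosystem I subunit E (PSAE1 and PSAE2). They are shown because these are the pairs of similar genes in which a fall was called for the first gene and no change was called for the second, and they were chosen after the values were seen. Each runs 5′ to 3′ along the gene's strand, from 250 bases before to 50 bases after the annotated gene start, in RefSeq's TAIR10.1 build. LFNR1 lies at chr5:26453150-26453449 on the minus strand, LFNR2 at chr1:6942375-6942674 on the plus strand, PSAE1 at chr4:14204012-14204311 on the minus strand and PSAE2 at chr2:8736484-8736783 on the plus strand. Capitals mark the I-box GATAAG and the G-box CACGTG on either strand, short elements known from promoters of light-regulated genes.
LFNR1: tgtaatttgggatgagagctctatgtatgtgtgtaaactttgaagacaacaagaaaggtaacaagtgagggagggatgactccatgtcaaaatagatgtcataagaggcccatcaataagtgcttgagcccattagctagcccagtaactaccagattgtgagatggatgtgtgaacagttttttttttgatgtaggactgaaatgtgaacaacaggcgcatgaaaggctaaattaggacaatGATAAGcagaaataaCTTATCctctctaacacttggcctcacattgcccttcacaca
LFNR2: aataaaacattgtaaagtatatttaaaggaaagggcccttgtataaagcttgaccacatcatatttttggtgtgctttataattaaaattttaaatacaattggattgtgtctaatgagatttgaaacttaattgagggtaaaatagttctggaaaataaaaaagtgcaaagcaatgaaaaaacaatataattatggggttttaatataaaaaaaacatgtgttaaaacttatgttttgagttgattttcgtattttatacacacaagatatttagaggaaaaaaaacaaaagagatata
PSAE1: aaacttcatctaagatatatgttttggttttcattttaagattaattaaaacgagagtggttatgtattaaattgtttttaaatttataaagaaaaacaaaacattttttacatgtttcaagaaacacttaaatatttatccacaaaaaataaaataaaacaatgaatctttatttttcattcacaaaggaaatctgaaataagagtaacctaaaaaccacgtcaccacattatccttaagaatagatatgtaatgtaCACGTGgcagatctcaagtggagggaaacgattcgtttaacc
PSAE2: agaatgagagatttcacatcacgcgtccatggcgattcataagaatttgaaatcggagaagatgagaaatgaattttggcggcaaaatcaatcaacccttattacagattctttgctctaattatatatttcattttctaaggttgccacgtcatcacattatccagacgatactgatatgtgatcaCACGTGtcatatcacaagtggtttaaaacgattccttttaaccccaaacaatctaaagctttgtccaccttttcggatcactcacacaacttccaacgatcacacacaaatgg

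LFNR1 had 2 I-boxes in this window and LFNR2 had neither element. PSAE1 and PSAE2 each had 1 G-box and no I-box. The second I-box of LFNR1 and the G-box of PSAE1 lie after the annotated gene start. The first I-box of LFNR1 and the G-box of PSAE2 lie before it. Position within the window was not used in the counts that follow. Over all 30 members, 16 windows (53.3%) held an I-box, which 14.6% of the windows of 27443 protein-coding genes did. A G-box was present in 11 member windows (36.7%) and in 7.68% of all windows. PSAH1, PSAH2, PSBQ1 and PSBQ2 held both elements. The element CCAATC stood in 7 member windows (23.3%, all genes 12.3%). AGATTC, a sequence bound by the GLK factors that switch on photosynthesis genes, stood in 10 (33.3%, all genes 19.5%). The GT-1 box GGTTAA was found in 6 (20.0%, all genes 16.7%) and the TATA box TATAAA in 15 (all genes 52.1%). All 6 motifs were searched on both strands, and in 0 member windows did hits of different motifs overlap. FD2, the member with the largest fall, held neither I-box nor G-box. These are counts of letters in windows, with no test.

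Transcripts of most of the 30 genes were lower after the shift from high CO2 to high light and ambient air. Values before the shift are those of high CO2 replicates 1, 2 and 3 and values after it those of high light replicates 1, 2 and 3, in that order, from separate pools of plants. Of the 30 members 28 fell and 0 rose in edgeR's quasi-likelihood test, at an adjusted p under 0.05 (Benjamini-Hochberg over all 18504 genes). Among all genes tested, 30.4% were called lower and 30.4% higher. DESeq2 and limma-voom also called 28 lower and 0 higher, and 0 members were higher at an unadjusted p under 0.05. The median log2 fold change of the members was -0.93, a level 52.3% of that in high CO2, while the median of all genes tested was -0.062. For 28 members every high light library lay below every high CO2 library, as for 33.9% of all genes tested. A fall of at least 2-fold was called for 13 members, and for 13.6% of all genes. Many members lie near 2-fold, and that count dropped to 8 or 7 when high CO2 replicate 1 or 2 was left out and to 6 when high light replicate 3 was, and it was 24 with upper-quartile scaling. With this scaling 35.7% of all calls were rises, against 50.1% with the main one, and the median of all genes was -0.33. Relative to the median of all genes, the members' median was -0.87 with either scaling.

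**Figure D1:**
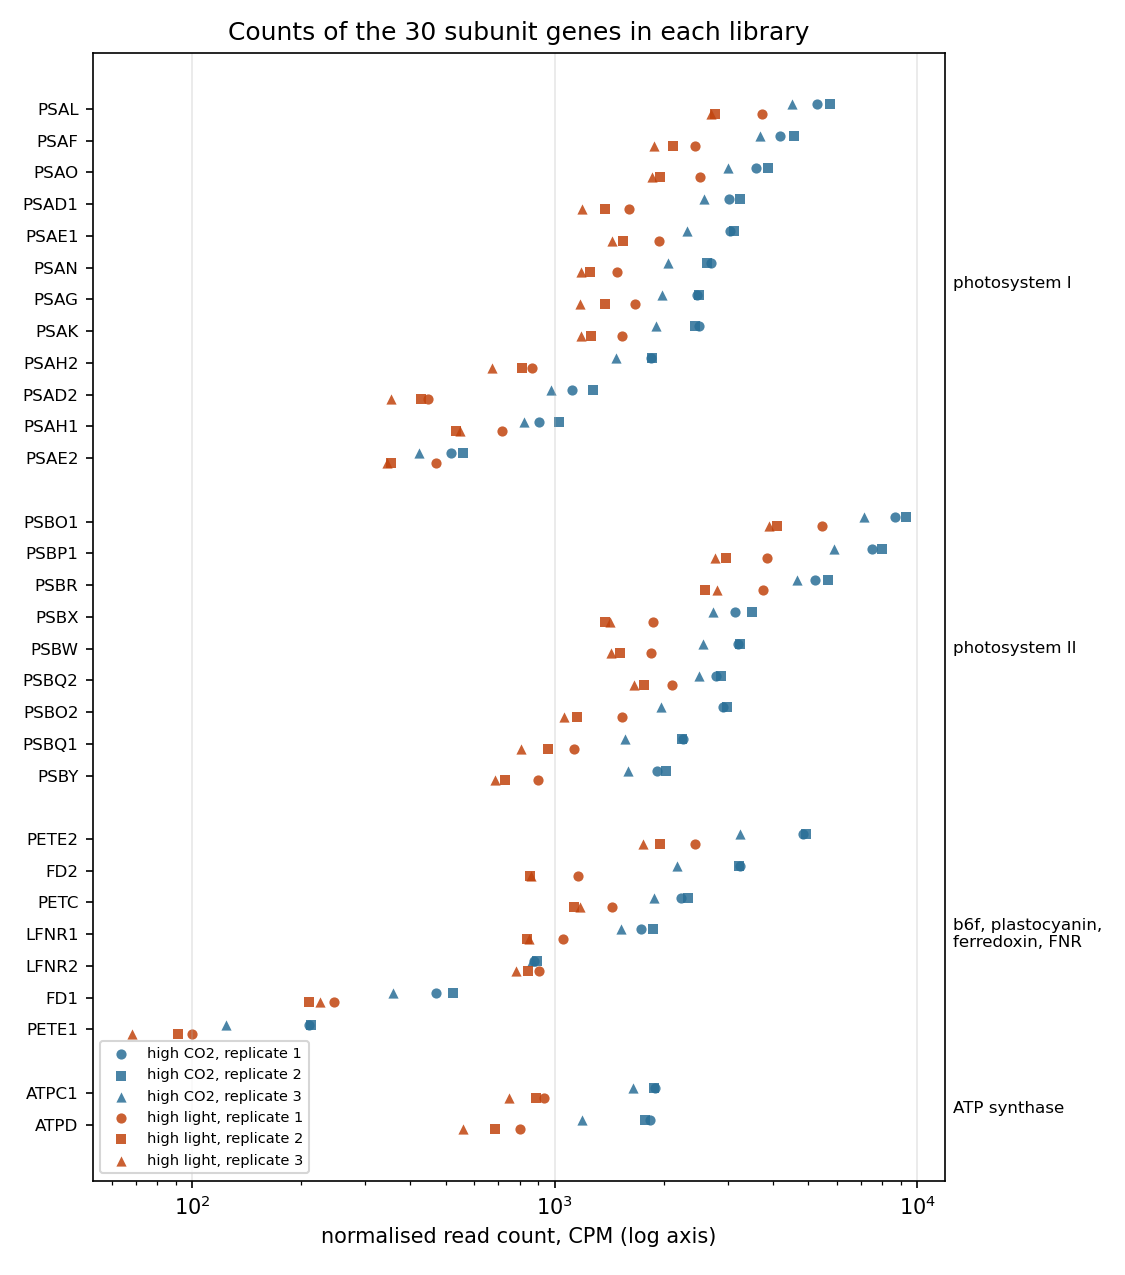
Normalised read count (CPM, log axis) of the 30 subunit genes, 1 marker per library, 3 libraries of high CO2 (blue) and 3 of high light (red), ordered by role and level. The high light markers lie left of all high CO2 markers for 28 genes and overlap with them for PSAE2 and LFNR2.

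Together the 30 genes gave 8.24, 8.42 and 7.38% of all counts before the shift and 5.02, 4.31 and 3.82% after it. Their share was 8.01% ± 0.557 (SD, n = 3) and 4.38% ± 0.603 (n = 3), and the groups did not overlap. The share of the photosystem II genes was 3.52% ± 0.239 before and 1.90% ± 0.283 after. Photosystem I genes held 2.93% ± 0.169 and 1.68% ± 0.228, the carriers 1.23% ± 0.126 and 0.643% ± 0.0759. The ATP synthase genes held 0.333% ± 0.0284 and 0.157% ± 0.0224.

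Within a group the members moved together from library to library, and they are not independent of each other. In CPM, replicate 3 was the lowest high CO2 library for all 30 members, and replicate 1 the highest high light library for all 30. The highest high CO2 library was replicate 2 for 24 members and replicate 1 for 6. The lowest high light library was replicate 3 for 23 members and replicate 2 for 7. In bulk leaf samples fewer cells of a type and less RNA per cell cannot be told apart. All 3 mesophyll markers fell too (median log2 fold change -1.33). Their summed level was 37082 to 53233 CPM before the shift and 15159 to 20877 CPM after it. Of 18 markers of guard cells, epidermis, vasculature, root, flower and seed, 13 could be tested: 10 fell, 1 (the guard cell channel KAT1) rose and 2 were not called. Those that fell include weakly counted genes, the flower gene AG with 9 to 30 counts in a library and the epidermis gene PDF1 with 12 to 76. Among all genes tested, 30.4% were called lower and 30.4% higher. The summed level of the tested markers was 727 to 767 CPM before and 502 to 527 CPM after. Most of this sum came from vasculature, with 532 to 571 CPM before and 360 to 400 CPM after. Epidermis markers summed to 145 to 147 CPM before and 61.2 to 102 CPM after. The summed level of the guard cell markers overlapped between the groups, with 47.0 to 48.7 CPM before and 40.0 to 55.2 CPM after. This sum hides opposite changes of single markers. KAT1, the most counted of them, rose (log2 fold change 0.63), FAMA (-0.82) and MYB60 (-1.48) fell, and HT1 (-0.35) was not called. The part of cell composition in the members' fall was not tested.

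All 9 photosystem II genes fell (all genes tested: 30.4%), with a median log2 fold change of -1.01. By at least 2-fold, 5 of them fell (all genes tested: 13.6%). Their extrinsic proteins on the lumen side shield and stabilise the manganese cluster that splits water. PSBO1 (AT5G66570), the more counted gene for the manganese-stabilising protein, had 8714, 9327 and 7118 CPM before the shift and 5470.4, 4104 and 3899 CPM after it (log2 fold change -0.90 ± 0.19, adjusted p = 0.00343 by edgeR). Its partner PSBO2 (AT3G50820) had 2921, 2997 and 1965 CPM before the shift and 1538, 1152 and 1062 CPM after it (log2 fold change -1.07 ± 0.22, adjusted p = 0.00282 by edgeR). PSBP1 (AT1G06680), whose protein helps to hold calcium and chloride at the cluster, had 7514, 7993 and 5912 CPM before the shift and 3844, 2973 and 2763 CPM after it (log2 fold change -1.16 ± 0.19, adjusted p = 9.0e-04 by edgeR). The groups did not overlap for any of these 3 genes, and high light replicate 1 came closest to the high CO2 libraries.

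The PsbQ protein acts beside PsbP. PSBQ1 (AT4G21280) had 2254, 2247 and 1559 CPM before the shift and 1130.5, 958 and 809 CPM after it (log2 fold change -1.06 ± 0.20, adjusted p = 0.00185 by edgeR). PSBQ2 (AT4G05180) had 2788, 2882 and 2497 CPM before the shift and 2109, 1765 and 1658 CPM after it and the smallest fall of the photosystem (log2 fold change -0.56 ± 0.16, adjusted p = 0.0131 by edgeR). Its groups did not overlap, but the call was lost without high CO2 replicate 2 (-0.49, adjusted p = 0.0654 by edgeR), high light replicate 2 (-0.53, 0.0509) or high light replicate 3 (-0.49, 0.0541). Over all its alternatives the adjusted p was 0.00147 to 0.0654.

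PSBR (AT1G79040), a protein needed for stable binding of PsbP, had 5238, 5688 and 4659 CPM before the shift and 3749, 2607 and 2812 CPM after it (log2 fold change -0.77 ± 0.18, adjusted p = 0.00654 by edgeR). The remaining subunits are small membrane proteins. PSBY (AT1G67740) had 1911, 2028 and 1594 CPM before the shift and 901, 729 and 686 CPM after it and the largest fall of the photosystem (log2 fold change -1.26 ± 0.17, adjusted p = 2.9e-04 by edgeR). For PSBX (AT2G06520) the values were 3136, 3493 and 2738 CPM before the shift and 1865, 1381 and 1417 CPM after it (log2 fold change -1.01 ± 0.18, adjusted p = 0.00132 by edgeR). PSBW (AT2G30570), which helps to stabilise the supercomplex with the antenna, had 3196, 3249 and 2574 CPM before the shift and 1847, 1516 and 1429.5 CPM after it (log2 fold change -0.91 ± 0.17, adjusted p = 0.00173 by edgeR). In all 4 genes the highest value after the shift, that of replicate 1, stayed below the lowest value before it, that of replicate 3.

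Of the 12 photosystem I genes 11 fell (all genes tested: 30.4%) and 1 was not called. Their median log2 fold change was -0.78, and 3 fell by at least 2-fold (all genes tested: 13.6%). The stromal subunit PsaD, a docking site of ferredoxin, has a pair of genes. PSAD1 (AT4G02770) had 3029, 3248 and 2586 CPM before the shift and 1602, 1380.5 and 1192 CPM after it (log2 fold change -1.09 ± 0.17, adjusted p = 6.7e-04 by edgeR). PSAD2 (AT1G03130) had 1119, 1272 and 976 CPM before the shift and 448, 427 and 355 CPM after it and the largest fall of the photosystem, to 36.5% of its level (log2 fold change -1.45 ± 0.17, adjusted p = 1.0e-04 by edgeR). In neither gene did the groups overlap.

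PsaE, also stromal, takes part in docking ferredoxin and has the gene pair whose windows are printed above. PSAE1 (AT4G28750) had 3039.9, 3116 and 2315 CPM before the shift and 1944, 1540.5 and 1444 CPM after it (log2 fold change -0.78 ± 0.19, adjusted p = 0.00607 by edgeR). PSAE2 (AT2G20260) had 518, 559 and 422 CPM before the shift and 472, 354 and 346 CPM after it and was not called (log2 fold change -0.36 ± 0.18, adjusted p = 0.116 by edgeR). Its groups overlapped because high light replicate 1 exceeded high CO2 replicate 3. Without high light replicate 1 a fall of PSAE2 was called (-0.51, adjusted p = 0.0388 by edgeR), as it was with upper-quartile scaling (-0.62, 0.0148). Over all its alternatives the adjusted p was 0.0148 to 0.386.

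PsaH, PsaL and PsaO lie on the side of the photosystem where mobile antenna of photosystem II can dock. PSAH2 (AT1G52230) had 1849.6, 1852 and 1476 CPM before the shift and 865, 813 and 673 CPM after it (log2 fold change -1.14 ± 0.17, adjusted p = 4.6e-04 by edgeR). PSAH1 (AT3G16140) had 907, 1026 and 824 CPM before the shift and 714, 534 and 549 CPM after it and the smallest called fall of the photosystem (log2 fold change -0.62 ± 0.17, adjusted p = 0.0122 by edgeR). The call for PSAH1 was lost when high CO2 replicate 2 was left out (-0.50, adjusted p = 0.0684 by edgeR) or when high light replicate 2 was (-0.54, 0.0514), in a set of alternatives that gave 0.00192 to 0.0684. PSAL (AT4G12800), the most counted gene of the photosystem, had 5309.6, 5754 and 4511 CPM before the shift and 3731, 2768 and 2701 CPM after it (log2 fold change -0.76 ± 0.19, adjusted p = 0.00692 by edgeR). PSAO (AT1G08380) had 3585, 3867 and 3003 CPM before the shift and 2522, 1950.5 and 1855 CPM after it (log2 fold change -0.72 ± 0.18, adjusted p = 0.00761 by edgeR). Groups did not overlap in these 4 genes.

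The other photosystem I members sit at its rim and lumen side. PsaG and PsaK are membrane subunits at the rim. PSAG (AT1G55670) had 2469, 2509 and 1972 CPM before the shift and 1666, 1374 and 1173 CPM after it (log2 fold change -0.72 ± 0.18, adjusted p = 0.00823 by edgeR). PSAK (AT1G30380) had 2508, 2445 and 1902 CPM before the shift and 1536, 1256 and 1179 CPM after it (log2 fold change -0.79 ± 0.18, adjusted p = 0.00453 by edgeR). On the lumen side PsaF and PsaN help plastocyanin to deliver its electron. PSAF (AT1G31330) had 4181, 4585 and 3695 CPM before the shift and 2434, 2123 and 1876 CPM after it (log2 fold change -0.95 ± 0.17, adjusted p = 0.00116 by edgeR). PSAN (AT5G64040) had 2704, 2636 and 2051 CPM before the shift and 1490.2, 1250.3 and 1182 CPM after it (log2 fold change -0.91 ± 0.17, adjusted p = 0.00182 by edgeR). High light replicate 1 stood above the other high light libraries in all 4 without reaching any high CO2 library.

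Of the 7 carrier genes 6 fell (all genes tested: 30.4%), 3 of them by at least 2-fold (all genes tested: 13.6%). The median log2 fold change of the 7 genes was -0.99. They held both the largest and the smallest change among the 30 members. FD2 (AT1G60950), the main leaf ferredoxin, had 3239.6, 3231 and 2179.8 CPM before the shift and 1157, 853 and 859 CPM after it, a fall to 33.2% of its level (log2 fold change -1.59 ± 0.21, adjusted p = 2.6e-04 by edgeR). FD1 (AT1G10960), the minor leaf ferredoxin, had 469.5, 524 and 357 CPM before the shift and 246, 210.2 and 225 CPM after it (log2 fold change -0.99 ± 0.17, adjusted p = 0.00118 by edgeR). In FD2 the high light libraries lay far below all high CO2 libraries, and in FD1 they were also separate.

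Leaf FNR, which passes electrons from ferredoxin to NADP, has the other gene pair whose windows are printed above. LFNR1 (AT5G66190) had 1728, 1862 and 1525 CPM before the shift and 1057, 839 and 851 CPM after it, without overlap (log2 fold change -0.90 ± 0.16, adjusted p = 0.00139 by edgeR). LFNR2 (AT1G20020) had 877, 891 and 865 CPM before the shift and 906, 843 and 780.3 CPM after it, with overlapping groups and no call (log2 fold change -0.058 ± 0.13, adjusted p = 0.726 by edgeR). The log2 fold change of LFNR2 was -0.33 with upper-quartile scaling, where the median of all genes was -0.33, and 0.062 without replicate 3 of both groups. Its adjusted p was 0.0605 to 0.985 over all alternatives, so it was called under none of them.

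Plastocyanin genes differ widely in level. PETE2 (AT1G20340) had 4855, 4947 and 3252 CPM before the shift and 2444, 1958 and 1754 CPM after it (log2 fold change -1.08 ± 0.21, adjusted p = 0.00227 by edgeR). PETE1 (AT1G76100), the least counted member, had 210.3, 213 and 124 CPM before the shift and 100.1, 91.6 and 68.2 CPM after it (log2 fold change -1.07 ± 0.24, adjusted p = 0.00408 by edgeR). PETC (AT4G03280), the Rieske iron-sulfur protein of the cytochrome b6f complex, had 2232, 2333 and 1881 CPM before the shift and 1436, 1131 and 1174 CPM after it (log2 fold change -0.79 ± 0.16, adjusted p = 0.00316 by edgeR). None of these 3 genes had overlapping groups.

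Both ATP synthase genes fell by over 2-fold (all genes tested, by at least 2-fold: 13.6%). ATPC1 (AT4G04640), the gamma subunit that turns inside the head of the enzyme, had 1892, 1877 and 1639.9 CPM before the shift and 937, 886 and 746 CPM after it (log2 fold change -1.07 ± 0.15, adjusted p = 3.9e-04 by edgeR). ATPD (AT4G09650), the delta subunit that joins the head to the stator, had 1835, 1779 and 1191 CPM before the shift and 804, 687 and 558 CPM after it (log2 fold change -1.23 ± 0.22, adjusted p = 0.00121 by edgeR). The high light libraries were below the high CO2 libraries in both, and high CO2 replicate 3 stood well below its 2 companions for ATPD.

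**Figure D2:**
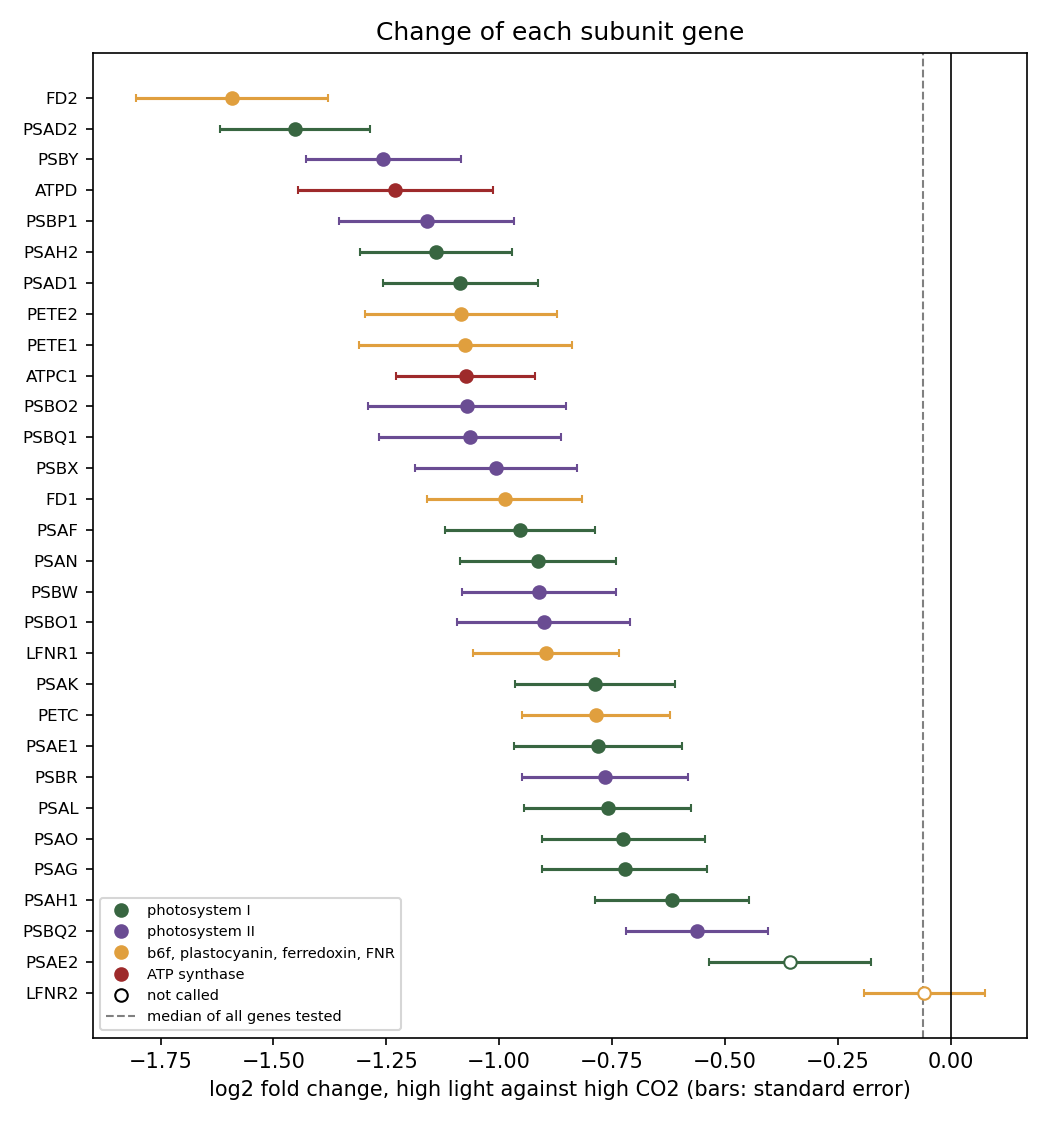
Log2 fold change of each subunit gene, high light against high CO2, with its standard error (horizontal bars), coloured by role and sorted from the largest fall (FD2, -1.59 ± 0.21) to LFNR2 (-0.058 ± 0.13). Filled points were called lower, open points were not called, and the dashed line marks the median of all genes tested (-0.062).

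Levels of different genes were compared per exon length, as transcripts per 1e6 transcripts (TPM). Before the shift the highest level was that of PSBR (9999 ± 306 TPM, SD, n = 3), followed by PSBO1 (8369.9 ± 407 TPM), PSBP1 (7922 ± 515 TPM), PSAL (6861 ± 262 TPM) and PSBX (6536 ± 306 TPM). The ranges of mean ± SD overlapped for the neighbours PSBO1 and PSBP1 and for PSAL and PSBX. At the other end stood FD1 (791 ± 82.3 TPM) and LFNR2 (726 ± 60.2 TPM), whose ranges of mean ± SD also overlapped, and PETE1 (259.5 ± 52.1 TPM). The order of levels was similar after the shift, with a Spearman rho of 0.961 across the 30 genes, which share libraries. PSBR ranked 1 and PSBO1 ranked 2 in both groups. The rank moved by over 3 places for 5 members: FD2 from 13 to 19, PSAD2 from 24 to 28, PSAE2 from 26 to 21, PSBQ2 from 17 to 13 and PETC from 20 to 16. Such ranks can rest on near ties. In high light FD2 (1587 ± 208 TPM) lay beside PSBQ1 (1588 ± 228 TPM), and PSAD2 (705 ± 88.2 TPM) beside PSAH1 (753 ± 86.6 TPM). PETC (2958 ± 62.6 TPM) lay beside PSBO2 (2964 ± 404 TPM) in high CO2. The range of PSBO1 in high light (4868 ± 705 TPM) overlapped that of PSAL (4396 ± 615 TPM). LFNR2 moved from rank 29 to rank 26, at 755 ± 53.5 TPM. With coding length in place of exon length, 9 of the 10 highest members before the shift were shared. Their order, including the places of PSBO1 and PSAL, depends on the length used, and the ranks given hold for exon length only. Coding bases were 846 of 1140 exon bases for PSAL and 999 of 1508 for PSBO1. They were 351 of 720 for PSBX and 504 of 1347 for PETE2.

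For 8 proteins the members include a pair of similar genes, and the share of the first gene in the counts of its pair does not depend on the scaling between libraries. In 6 of the 8 pairs the shares did not overlap between the groups. How often shares separate in other gene pairs was not counted, while 30.4% of all genes tested were called lower and 30.4% higher. The 6 can therefore not be called particular to these pairs. LFNR1 made up 66.3, 67.6 and 63.8% of its pair before the shift and 53.8, 49.9 and 52.2% after it. Its mean share was 65.9% ± 1.94 before and 52.0% ± 1.99 after (SD, n = 3 each), close to equal counts of both genes in high light. PSAH1 made up 32.9, 35.7 and 35.8% of its pair before the shift and 45.2, 39.6 and 44.9% after it, with means of 34.8% ± 1.64 before and 43.3% ± 3.15 after. PSBQ1 made up 44.7, 43.8 and 38.4% of its pair before the shift and 34.9, 35.2 and 32.8% after it, with means of 42.3% ± 3.39 before and 34.3% ± 1.31 after. These 3 pairs had the largest differences between mean shares in percentage points. By the log2 ratio of first to second gene the order differed. That ratio changed by -0.84 for LFNR1 to LFNR2 and by 0.61 for FD1 to FD2. It changed by 0.52 for PSAH1 to PSAH2 and by -0.49 for PSBQ1 to PSBQ2.

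FD1, the minor ferredoxin gene, had a share of 13.6% ± 0.790 before and 19.3% ± 1.65 after, so FD2 remained the more counted gene in every library. The share of PSAD1 was 72.5% ± 0.583 before and 77.2% ± 0.904 after and that of PSAE1 84.9% ± 0.448 before and 80.8% ± 0.443 after, without overlap. In the pairs PSBO1 with PSBO2 and PETE1 with PETE2 the groups overlapped. PSBO1 had a share of 76.3% ± 1.82 before and 78.2% ± 0.304 after and PETE1 of 3.98% ± 0.273 before and 4.05% ± 0.376 after. An exact two-sided permutation test of the share gave p = 0.1 for each of the 6 pairs without overlap, p = 0.3 for PSBO1 and p = 0.9 for PETE1 (n = 3 against 3). Adjusted over the 8 pairs these became 0.133, 0.343 and 0.9, and with a smallest possible p of 0.1 no pair could pass 0.05.

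Counts of similar genes depend on how well reads tell them apart. The coding sequences of the partners were 72.9% to 87.3% identical, with a longest identical run of 17 to 35 bases. In 0 members did another gene match at 95% identity or more over at least 50% of the coding length. Genes on the opposite strand covered 53.3% of the exon bases of PSAH1, 24.8% of PSAH2, 12.7% of LFNR1 and 10.4% of PSAE2. The values of these 4 genes, and the shares of their pairs, are uncertain where the counting ignored strand.

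**Figure D3:**
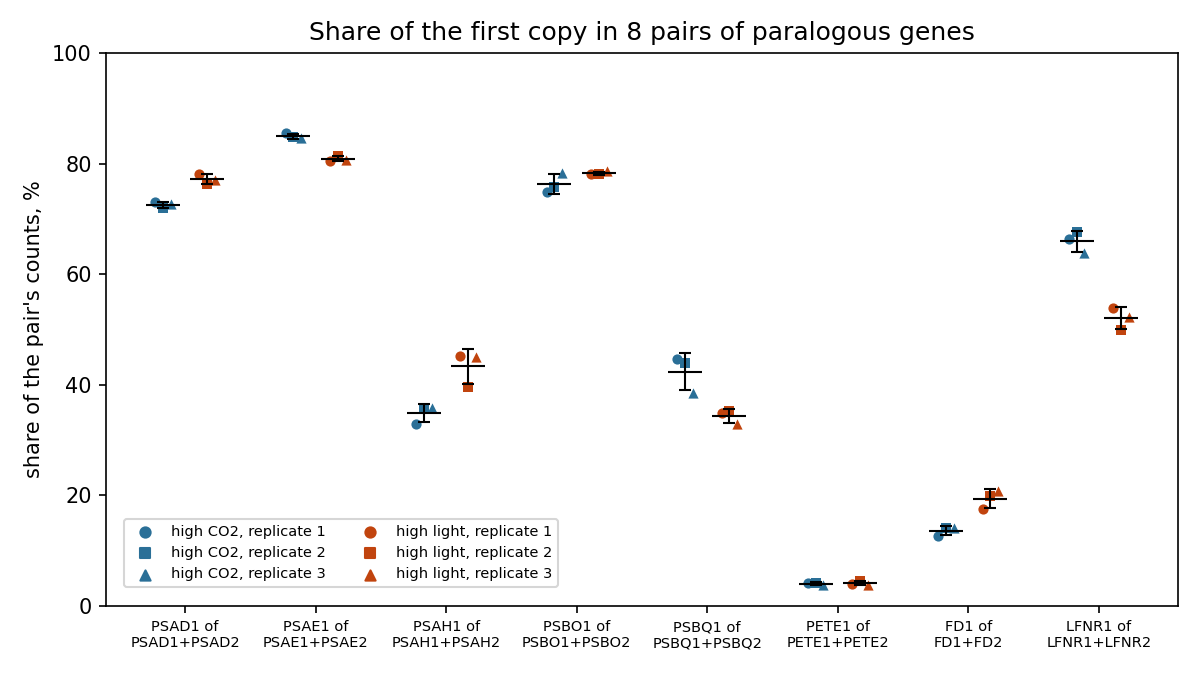
Share of the first gene in the counts of each of 8 pairs of similar genes (vertical axis, %), 1 marker per library, with the mean and SD of 3 libraries as black bars. The mean share of LFNR1 was 65.9% ± 1.94 before and 52.0% ± 1.99 after, while the shares of PETE1 and PSBO1 overlapped between the groups.

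Other nuclear genes of the light reactions were counted from 5 lists, of which 69 of 70 genes could be tested. Of these 62 fell and 1 rose, where 30.4% of all genes were called lower and 30.4% higher. Of 7 other subunits and thylakoid proteins 6 fell, with a median at 49.9% of the high CO2 level. PSBP2 (AT2G30790), a weakly counted relative of PSBP1, had 17.1, 18.8 and 15.5 CPM before the shift and 4.71, 4.68 and 4.27 CPM after it (log2 fold change -1.91 ± 0.14, adjusted p = 7.9e-06 by edgeR). PSBS (AT1G44575), which triggers the release of excess light energy as heat, had 3815, 4015 and 3132 CPM before the shift and 1747, 1294 and 1309.9 CPM after it (log2 fold change -1.33 ± 0.18, adjusted p = 3.1e-04 by edgeR).

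Of 8 tested genes for other carrier proteins 5 fell and 1 rose (median -0.82), and FD4 had 0 counts in all libraries. The gene that rose was RFNR1 (AT4G05390), a root-type FNR, with 24.7, 26.8 and 19.6 CPM before the shift and 48.1, 57.7 and 79.6 CPM after it (log2 fold change 1.38 ± 0.21, adjusted p = 4.8e-04 by edgeR). Its relative RFNR2 (AT1G30510) fell, with 26, 27.5 and 32.7 CPM before the shift and 13, 11.0 and 15.7 CPM after it (log2 fold change -1.12 ± 0.16, adjusted p = 4.2e-04 by edgeR). All 3 high light libraries lay above high CO2 for RFNR1 and below it for RFNR2. The ferredoxin-like FDC1 (AT4G14890) had 109, 117 and 76.7 CPM before the shift and 36.5, 31.2 and 27.2 CPM after it (log2 fold change -1.67 ± 0.19, adjusted p = 9.6e-05 by edgeR), but all of its exon bases lie opposite another gene, so its value is uncertain where the counting ignored strand.

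Cyclic electron flow and the chloroplast NDH complex return electrons from ferredoxin to plastoquinone. Of 19 genes for them 18 fell (median -1.02), led by NDHM (AT4G37925, log2 fold change -1.63 ± 0.13, adjusted p = 1.0e-05 by edgeR) and NDHT (AT4G09350, log2 fold change -1.55 ± 0.12, adjusted p = 1.0e-05 by edgeR). Of 15 assembly and repair factors 14 fell (median -0.88), led by PSB28 (AT4G28660, log2 fold change -1.49 ± 0.23, adjusted p = 6.6e-04 by edgeR) and PSB27 (AT1G03600, log2 fold change -1.44 ± 0.23, adjusted p = 7.5e-04 by edgeR), which bind photosystem II during assembly. Of 20 antenna genes, whose proteins harvest light, 19 fell (median -1.10), led by LHCB2.3 (AT3G27690, log2 fold change -1.45 ± 0.18, adjusted p = 1.6e-04 by edgeR) and LHCB4.3 (AT2G40100, log2 fold change -1.44 ± 0.16, adjusted p = 9.7e-05 by edgeR). Across the 5 lists 12 of 70 genes, and 4 of the 30 members, have over 10% of their exon bases opposite another gene (40.6% for LHCB2.3), which makes their counts less certain if reads were assigned without strand. Copies of at least 95% identity were found for 5 antenna genes. The counts of falls in these lists stand beside 30.4% of all genes tested that were called lower. The members' role medians ran from -0.78 for photosystem I to -1.15 for ATP synthase, and no difference between lists was tested.

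**Figure D4:**
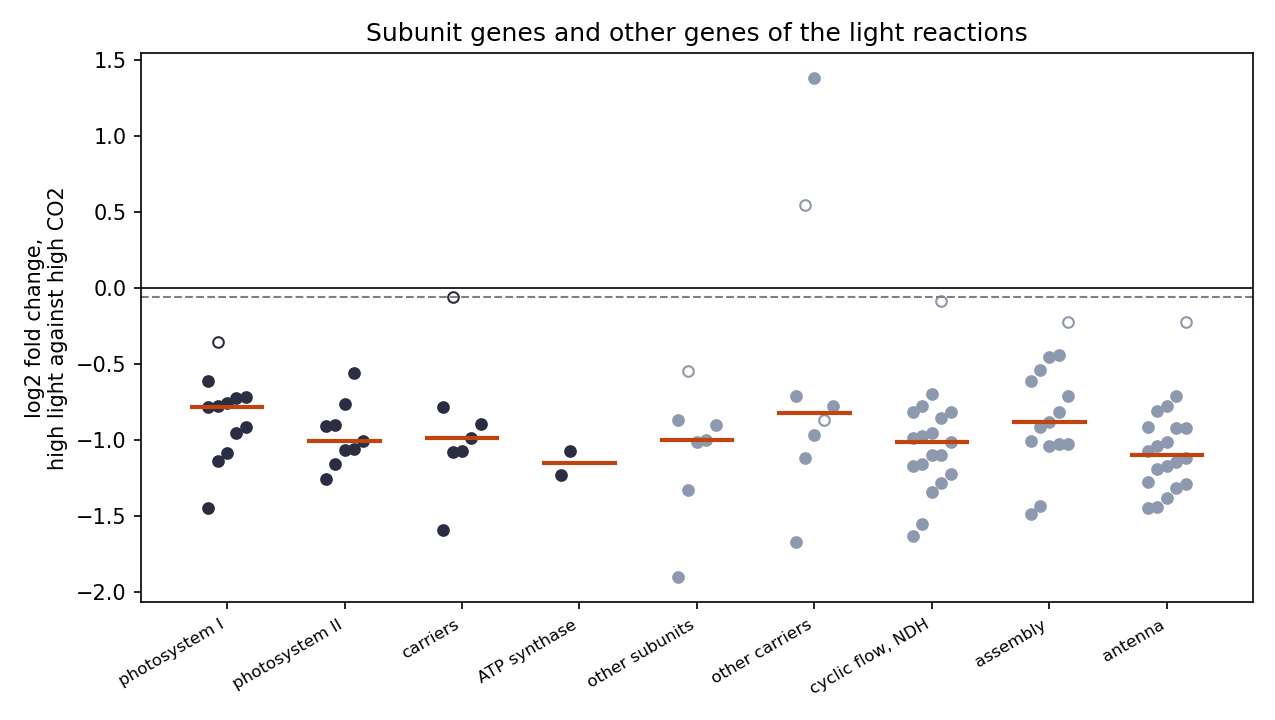
Log2 fold change (vertical axis), high light against high CO2, of the members by role (dark points) and of other genes of the light reactions by list (grey points), with the median of each as an orange bar. Filled points passed the test and open points did not, the dashed line is the median of all genes tested, and RFNR1 at 1.38 is the filled point above 0.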

How the data were processed

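Leaf mRNA libraries (TruSeq Stranded mRNA kit, per the labels' protocols) were sequenced for 6 samples. The submitters' processing notes name Trim Galore 0.3.3, TopHat2 2.1.0, featureCounts (Subread 1.4.6) and the TAIR10 genome. The strand setting and the handling of multiply matching reads are not stated there. The authors deposited raw counts per gene, from which 2 leftover header rows of 33604 were dropped. Groups and replicate numbers come from the titles.

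Counts were tested with edgeR 4.0.16 (R 4.3.3): filterByExpr with a minimum count of 10, TMM factors of 0.932 to 1.07, robust glmQLFit and two-sided glmQLFTest with 4 residual degrees of freedom. The standard error is the unshrunken log2 fold change over the square root of F. The procedure was tested on simulated data. CPM use TMM-scaled totals. TPM, overlaps, coding sequences (compared with BLAST 2.17.0) and windows at gene starts used RefSeq's TAIR10.1 genome and annotation, matched by locus, which all 30 members were. Replicates were no copies of each other (chi-square/df of their counts 9.47 to 50.9). Members and lists were chosen with earlier results of these data known. All members are named, and of each other list the called genes with the largest rise and the 2 largest falls, at a mean log2 CPM of at least 2. Alternatives were other scalings, no filter, DESeq2 1.42.0, limma-voom (limma 3.58.1), a replicate block and leaving out libraries.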

Additional observations from a re-analysis of the deposited data

How the results depend on the processing

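Of 420 refits of single members (30 members, 14 alternatives), 412 kept their direction and their side of the threshold. The others concern PSAE2, PSAH1 and PSBQ2, whose values stand in the report, and LFNR2, whose log2 fold change was 0.062 without replicate 3 of both groups. Over all alternatives 26 to 29 members were called lower and 0 higher. With upper-quartile factors 24 members fell by at least 2-fold, the median of the members was -1.20 and that of all genes -0.33, and of all calls 35.7% were rises (4386 higher, 7883 lower) in place of 50.1% (5631 higher, 5616 lower). Leaving out libraries gave 6 to 19 members lower by at least 2-fold, a median of the members of -1.05 to -0.83 and a difference of the PETE1 share of -0.145 to 0.217 percentage points, below 0 without high CO2 replicate 3 (-0.0929) or high light replicate 2 (-0.145). The other 7 pair shares kept their direction. The share of all counts held by the members differed by -3.95 to -3.35 percentage points without single libraries, and by -4.41 when the 10 most counted genes were left out of the totals. With a replicate block 28 members fell, 13 of them by at least 2-fold, and 6071 genes in all were lower and 5880 higher. Deviations from the group means correlated at 0.219, -0.0207 and 0.410 between libraries of the same number. Between libraries of different numbers the correlations ran from -0.413 to 0.235. These values do not settle whether the numbers mark pairs. The main test and the permutation tests did not take them as pairs, while the replicate block did. The number of libraries, not depth, limits these values, and the causes of the shifts were not tested.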
